A study of Homo sapiens with 4 samples.

Results

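The Src-family and related non-receptor tyrosine kinases examined here were the 9 genes SRC, YES1, FYN, LYN, LCK, FGR, FRK, PTK6 and CSK, out of 16422 genes with a named probe on the array. They were chosen by name, with earlier results of these data known. All 9 had at least 1 probe, with 12 probes in all, and 8 of the 9 reached a signal of 100 on at least 1 array, LCK being the exception. Total RNA was profiled on 4 Agilent arrays, 1 array per condition, so that there are no replicates and each change below is a description of a pair of arrays. SkBr3 and BT474, a pair of HER2-amplified human breast cancer cell lines, were cultured with vehicle. SkBr3/Lap and BT474/Lap, 1 lapatinib-resistant clone of each line, were selected in rising concentrations of up to 1 μM lapatinib, a dual inhibitor of the EGFR and HER2 kinases, and were labelled as lapatinib-treated. Each clone is a single isolate, so that differences between clones of the same line could not be measured. The sample labels number the SkBr3 clone 3 and the BT474 clone 6, whereas the paper numbers them the other way round, and the clones are therefore named here by their parental line.

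Src-family kinases sit at the inner face of the plasma membrane and relay signals from receptor tyrosine kinases and integrins. Each is held closed by a phosphorylated tyrosine in its tail, which CSK adds, and opens when phosphatases remove this phosphate or when its SH2 and SH3 domains are drawn to a partner. SRC, YES1 and FYN are found in most tissues, LYN, LCK and FGR are best known from blood cells, and FRK and PTK6 (also called BRK) are related kinases of epithelia. In HER2-positive breast cancer cells Src-family activity is a known route of signaling beside HER2, and Src can phosphorylate the NF-κB inhibitor IκBα on tyrosine. The study followed the activity of these kinases in the cells, and the arrays add the amounts of their mRNAs, which do not measure phosphorylation or activity.

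RefSeq promoter windows of GRCh38.p14 matched 6 of the 9 genes, with 11 windows in all, and none was found for SRC, LYN and PTK6. The windows of FYN and FGR are shown because these were the genes among the 6 whose scaled level was at least 2-fold higher in a clone. For each, the 250 bases before the most upstream start are printed, on the minus strand, at chr6:111873453-111873702 for FYN and at chr1:27635186-27635435 for FGR. Capitals mark each GGGCGG, the core of a GC box, on either strand, and no motifs overlapped. Which start was used in these cells was not measured.
FYN: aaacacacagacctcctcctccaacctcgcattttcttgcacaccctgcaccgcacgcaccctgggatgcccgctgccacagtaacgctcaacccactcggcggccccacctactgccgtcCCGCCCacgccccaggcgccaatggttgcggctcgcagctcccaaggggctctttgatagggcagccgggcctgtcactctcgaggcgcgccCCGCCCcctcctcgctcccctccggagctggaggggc
FGR: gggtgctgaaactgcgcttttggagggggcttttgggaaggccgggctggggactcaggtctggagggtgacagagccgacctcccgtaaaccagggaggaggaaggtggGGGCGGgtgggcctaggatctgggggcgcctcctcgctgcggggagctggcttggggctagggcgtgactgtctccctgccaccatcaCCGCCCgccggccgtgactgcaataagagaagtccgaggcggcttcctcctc
Each of these windows held 2 GGGCGG matches, and 42.6% of the 35116 windows of this length in the table held at least 1. Neither window held the NF-κB consensus of 10 letters, found in 9.96% of all windows, or the AP-1 sequence TGANTCA, found in 6.57%. Another FYN window, the one at chr6:111873072-111873321, held 1 NF-κB consensus and 8 GGGCGG matches, and it lies downstream of the start used above. A YES1 window and an LCK window held 1 NF-κB consensus each. These are matches of letters and not measured sites.

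FYN and LYN were the members at least 2-fold higher in both clones. FGR was at least 2-fold higher in SkBr3/Lap, PTK6 was at least 2-fold lower there, and SRC itself was not higher in either clone after scaling. YES1, FRK and CSK stayed within 2-fold in both. As the RNA came from whole cultures, fewer cells expressing a gene and less RNA per cell cannot be told apart. Signals are given as the processed signal of the scanner software, an intensity after background subtraction, and fold changes are taken after each array was scaled to its 75th percentile. This percentile was 1.86-fold higher in SkBr3/Lap than in SkBr3 and 1.45-fold higher in BT474/Lap than in BT474, so that equal signals stand for a lower scaled level in the clone. The other 3 arrays came from the same slide and scan, which did not hold the SkBr3/Lap array, so that slide and resistance cannot be told apart in the SkBr3 pair, and the BT474 pair lies within 1 slide. The median log2 fold change over all named genes was -0.05 for SkBr3/Lap and -0.08 for BT474/Lap, and it became 0.11 and -0.29 when arrays were scaled to their median signal instead.

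**Figure D1:**
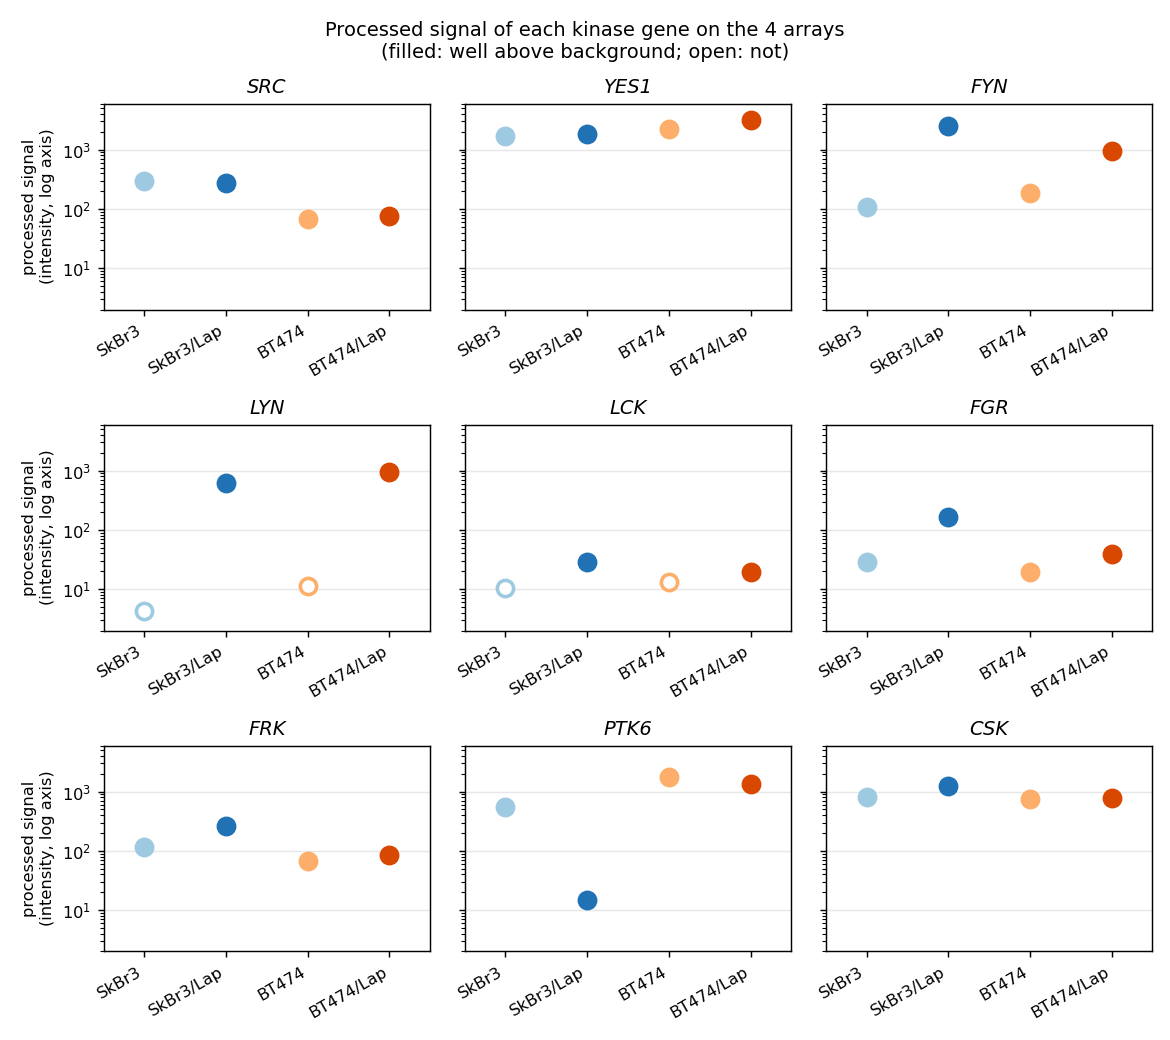
Processed signal (intensity, log axis) of each kinase gene on the 4 arrays, with filled circles for signals well above background and open circles for signals that were not. LYN goes from 4.24 to 629 in the SkBr3 line and from 11.2 to 947 in the BT474 line, and PTK6 goes from 557 to 14.9 in the SkBr3 line.

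Among the ubiquitous members, SRC had a signal of 291 in SkBr3 against 273 in SkBr3/Lap, and 67.5 in BT474 against 74.9 in BT474/Lap. The signals within a line were close, and both SkBr3 arrays lay above both BT474 arrays. After scaling, the level was 1.98-fold lower in SkBr3/Lap than in SkBr3 (log2 fold change -0.99) and 1.31-fold lower in BT474/Lap than in BT474 (log2 fold change -0.39). The probe was spotted 10 times per array, with an SD among the spots of 0.106, 0.124, 0.179 and 0.259 on the log2 scale in the order above. The scaled spot levels did not overlap in the SkBr3 pair, from -2.16 to -1.78 in the parent and from -3.06 to -2.72 in the clone. They overlapped in the BT474 pair, from -4.47 to -3.90 in the parent and from -4.93 to -4.14 in the clone. Before scaling, the spots of the SkBr3 pair overlapped too, with signals from 250 to 324 in SkBr3 and from 249 to 315 in SkBr3/Lap. The gap in that pair thus comes from the scaling. Spots of 1 array share 1 RNA sample and 1 hybridization, and are not replicates of a condition. Between the parental lines, SRC was 4.48-fold lower in BT474 than in SkBr3.

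YES1, the closest relative of SRC, was read by 2 probes. The probe with the higher signal read 1702 in SkBr3 against 1831 in SkBr3/Lap, and 2258 in BT474 against 3125 in BT474/Lap, with log2 fold changes of -0.79 and -0.07 in the SkBr3 and BT474 clones. The other probe read 62.7, 89.4, 189 and 145 in the same order, with log2 fold changes of -0.38 and -0.92. Both probes were lower in both clones, by less than 2-fold, and they differ on which clone shows the larger difference.

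FYN, a kinase that acts downstream of integrins and growth factor receptors, had a signal of 106 in SkBr3 against 2496 in SkBr3/Lap, and 187 in BT474 against 939 in BT474/Lap. Both clones lay above both parental lines. The scaled level was higher by 12.7-fold in SkBr3/Lap and by 3.46-fold in BT474/Lap, log2 fold changes of 3.66 and 1.79. Scaled spot levels in the SkBr3 pair ran from -3.52 to -3.28 in the parent and from 0.19 to 0.35 in the clone, and those in the BT474 pair from -2.79 to -2.53 and from -0.92 to -0.76. The spots thus did not overlap in either pair. From high to low the order was SkBr3/Lap, BT474/Lap, BT474 and SkBr3, with each step larger than the spread of the spots. This spread lies within 1 hybridization and does not measure variation between cultures. Among the genes with a fold change, FYN ranked 269 of 11783 from the highest change in SkBr3/Lap and 471 of 11825 in BT474/Lap.

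**Figure D2:**
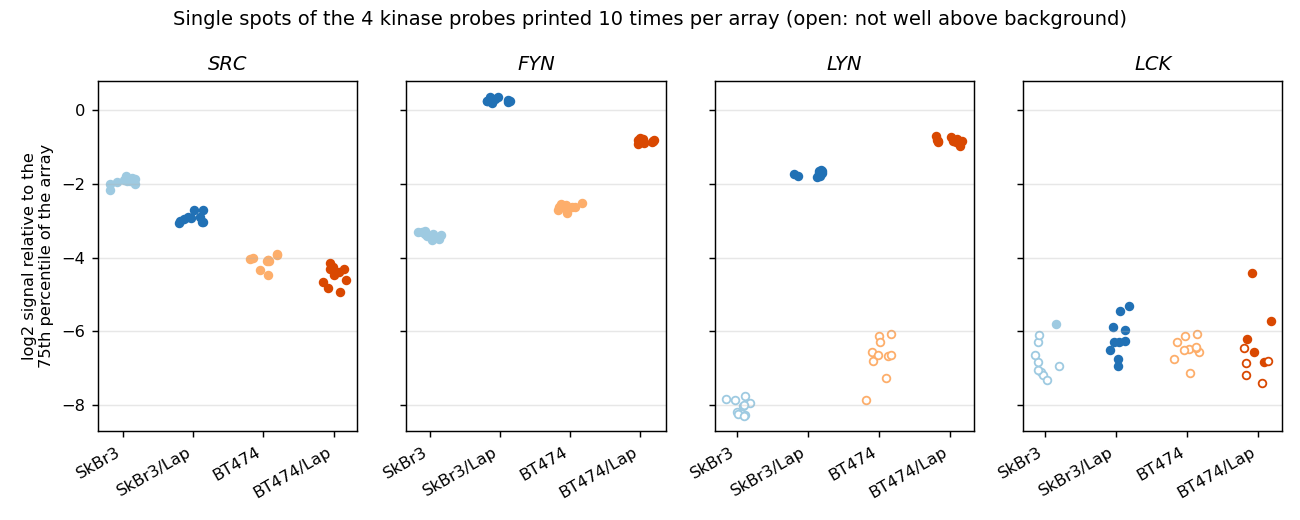
Single spots of the 4 kinase probes printed 10 times per array, as the log2 signal relative to the 75th percentile of the array, with open circles for spots not well above background. The FYN and LYN spots of each clone lie apart from those of its parent, the SRC spots of BT474 and BT474/Lap overlap, and the LCK spots lie near background on all 4 arrays.

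LYN, a kinase best known from B cells and myeloid cells, had a signal of 4.24 in SkBr3 and 11.2 in BT474, and 0 of its 10 spots were well above background in either parent. In SkBr3/Lap the signal was 629 and in BT474/Lap it was 947, with 10 of 10 spots well above background in each clone. Single spots ran from 3.58 to 5.15 in SkBr3, from 585 to 666 in SkBr3/Lap, from 5.03 to 17.2 in BT474 and from 857 to 1022 in BT474/Lap. LYN mRNA was therefore measurable in the clones and not in the parental cells. Setting each parent to the lowest signal marked well above background on its array gave a scaled level at least 21.1-fold higher in SkBr3/Lap and at least 40.9-fold higher in BT474/Lap, limits of 4.40 and 5.35 on the log2 scale. These limits depend on how dim signals are treated, with log2 values of 2.87 and 3.38 by normexp with quantile normalization and of 3.45 and 4.38 with 16 added to each signal. By these limits LYN ranked 167 of 11783 genes from the highest in SkBr3/Lap and 24 of 11825 in BT474/Lap.

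The other members known from blood cells were dim. LCK, the kinase that starts T-cell receptor signaling, read 10.5 in SkBr3 against 28.9 in SkBr3/Lap, and 13.0 in BT474 against 19.3 in BT474/Lap, with 1, 10, 0 and 5 of its 10 spots well above background. No fold change is given for LCK, since the limit after scaling was under 1 in both pairs. FGR, a kinase of neutrophils and monocytes, read 28.4 in SkBr3 against 163 in SkBr3/Lap, and 19.7 in BT474 against 39.6 in BT474/Lap. SkBr3/Lap stood above the other 3 arrays, with a scaled level 3.08-fold that of SkBr3 (log2 fold change 1.62), while BT474/Lap was 1.38-fold above BT474 (log2 fold change 0.47). The other 2 FGR probes were not well above background on any array, so the FGR values rest on 1 spot of 1 probe. With normexp background correction and quantile normalization the FGR log2 fold change in SkBr3/Lap was 0.87, under the 2-fold threshold.

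PTK6, an epithelial kinase that is often abundant in breast tumors and acts beside HER2, had a signal of 557 in SkBr3 against 14.9 in SkBr3/Lap, and 1738 in BT474 against 1366 in BT474/Lap. SkBr3/Lap stood far below the other 3 arrays, close to the lowest signal marked well above background there, 13.3. The scaled level was 69.7-fold lower in SkBr3/Lap (log2 fold change -6.12), and it was the 53rd lowest change among 11783 genes. In BT474/Lap the level was 1.85-fold lower (log2 fold change -0.88). Background correction by normexp with quantile normalization gave a log2 fold change of -3.39 in SkBr3/Lap. The PTK6 probe was spotted once per array, so no spread among spots can be given.

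FRK, a kinase that restrains growth in epithelial cells, read 114 in SkBr3 against 262 in SkBr3/Lap, and 66.3 in BT474 against 86.4 in BT474/Lap. Its log2 fold changes were 0.31 and -0.15 in the SkBr3 and BT474 clones. CSK, the kinase that closes the Src-family members, read 795, 1232, 757 and 786 in the same order of arrays, with log2 fold changes of -0.26 and -0.48. Neither gene differed by 2-fold between a clone and its parent.

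**Figure D3:**
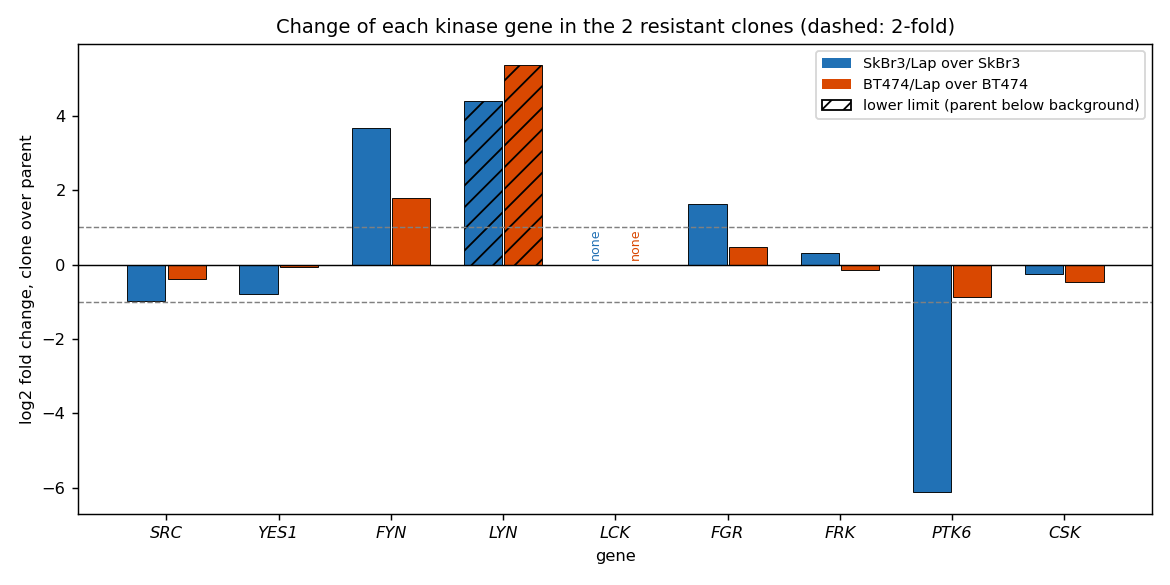
Log2 fold change of each kinase gene in SkBr3/Lap and BT474/Lap over the parental line, with hatched bars for limits where the parent was below background, dashed lines at 2-fold and none where no fold change could be given. FYN (3.66 and 1.79) and LYN (limits of 4.40 and 5.35) lie above 2-fold in both clones, and PTK6 (-6.12) lies below it in SkBr3/Lap.

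Counted together, 3 of the 8 members with a fold change were at least 2-fold higher in SkBr3/Lap and 1 was at least 2-fold lower, against 13.5% and 13.0% of the 12159 named genes that passed the same filter. In BT474/Lap 2 of 8 were higher and 0 lower, against 8.66% and 5.16% of all named genes. FYN and LYN made 2 of 8 at least 2-fold higher in both clones, against 2.48% of all named genes. LYN passed the filter through the clones alone and FGR through SkBr3/Lap alone, so that their place in the counts is not independent of their rise. With so few members the counts are not a result about the group. The median log2 fold change of the members was 0.02 in SkBr3/Lap and -0.11 in BT474/Lap, near the -0.05 and -0.08 of all named genes. LYN and FYN were also in the list of genes raised in both clones that the study drew from these arrays, so that list is not independent evidence of their direction.

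The only fit with residual degrees of freedom was limma over both lines, with the cell line as a block, and it asked for a shift shared by both clones. It called 0 of 25927 probes (0% called) at an adjusted p below 0.05, with 900 probes (3.47%) at an unadjusted p below 0.05. FYN was among the latter, with a common log2 change of 2.73 and an SE of 0.65 (limma, adjusted p = 1, higher in both clones). LYN was among them too, with a common log2 change of 6.09 and an SE of 0.43 (limma, adjusted p = 1, higher in both clones), a value that rests on parental signals below background. A separate fit took the slide in place of the cell line as the block, but SkBr3/Lap was alone on its slide and was fitted exactly. That fit compared BT474/Lap with both parents, cannot ask for a shift shared by both clones, and is left aside here. PTK6 had a common log2 change of -3.50 with an SE of 1.46 (limma, adjusted p = 1), and SRC one of -0.69 with an SE of 0.44 (limma, adjusted p = 1). The fit had 1 residual degree of freedom, and a p above the threshold does not show that these genes were equal.

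**Figure D4:**
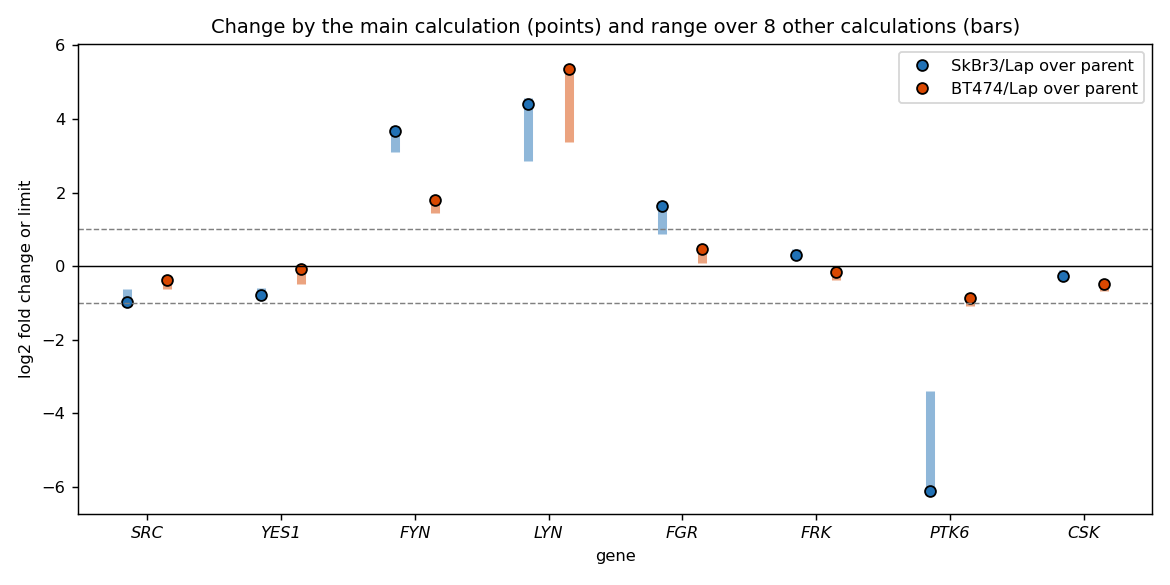
Log2 fold change or limit of the 8 kinase genes in each clone by the calculation reported here (points) and its range over 8 other calculations (bars), with dashed lines at 2-fold. FYN and LYN stay above 2-fold in both clones and PTK6 below it in SkBr3/Lap throughout, whereas the FGR and SRC bars of SkBr3/Lap and the PTK6 bar of BT474/Lap reach across the line.

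Since LYN, LCK and FGR are known from blood cells, markers of other cell types were read on the same arrays. Of 14 haematopoietic markers, 8 were well above background in SkBr3 against 9 in SkBr3/Lap, and 7 in BT474 against 8 in BT474/Lap, with summed signals of 10141, 50073, 1490 and 2290. The defining markers PTPRC (CD45), CD3D, SPI1 and CD33, along with LAPTM5, were not well above background on any array. Most of the difference in the SkBr3 line came from CSF1R, the receptor of a macrophage growth factor, with 5913 in SkBr3 and 42225 in SkBr3/Lap. Of 6 stromal and endothelial markers, 2, 5, 1 and 2 were well above background in the same order of arrays, with summed signals of 193, 1815, 917 and 669. CDH5, an endothelial cadherin, read 58.4 in SkBr3 and 915 in SkBr3/Lap, and COL3A1, a fibrillar collagen, read 4.10 and 347, while COL1A2 was not well above background on any array. PECAM1 (CD31), an endothelial adhesion molecule, was below background in both parents and above it in both clones, as LYN was, with 3.43 in SkBr3 against 160 in SkBr3/Lap, and 3.32 in BT474 against 55.2 in BT474/Lap (limits of 2.43 and 1.25 on the log2 scale). The part of these genes' changes in the FYN, LYN and FGR results was not tested. Epithelial and HER2 markers, read as 1 list, fitted the labels by their presence above background. Of these, 6 of 7 were well above background in SkBr3 and SkBr3/Lap, CDH1 (E-cadherin) being the exception, and 7 of 7 in BT474 and BT474/Lap. In SkBr3/Lap ERBB2 and GRB7 were at least 2-fold lower, with log2 fold changes of -1.90 and -1.19, beside 13.0% of all named genes. The other 4 with a fold change there stayed within 2-fold.

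The genes around these kinases were read from textbook lists of 71 genes, of which 55 passed the filter. In SkBr3/Lap 16 of the 54 with a fold change were at least 2-fold higher and 5 lower (median log2 fold change 0.17), beside the 13.5% and 13.0% of all named genes given above. In BT474/Lap 6 of 53 were higher and 3 lower (median -0.03), beside 8.66% and 5.16%. In both clones TXK, PTPRE, NEDD9, CAV1 and AFAP1L2 were higher by at least 2-fold, beside 2.48% of all named genes, and 0 were at least 2-fold lower in both, beside 1.21%. TXK, PTK2B and GAB1 passed the filter through SkBr3/Lap alone, and TEC through the clones alone. Their place in these counts is thus not independent of their rise.

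Among other Src-family and Csk-family kinases, BLK was not well above background on any array, and SRMS reached it in BT474/Lap alone, at 22.0. MATK, a relative of CSK, was well above background in the BT474 line, with 272 in BT474 and 327 in BT474/Lap (log2 fold change -0.27). Of 15 other non-receptor tyrosine kinases, 10 passed the filter. In SkBr3/Lap 3 were at least 2-fold higher and 1 was lower, beside 13.5% and 13.0% of all named genes. The 3 were TXK, TEC and PTK2B, and each passed the filter through clones alone. This count is thus not independent of their rise. In BT474/Lap 1 was higher, beside 8.66%. TXK, a Tec-family kinase of T cells, was below background in both parents, at 3.64 and 3.70, and read 175 in SkBr3/Lap and 67.0 in BT474/Lap, with limits of 2.55 and 1.53 on the log2 scale. Its relative TEC had log2 fold changes of 1.66 and 0.97. PTK2B (PYK2), a focal adhesion kinase that partners Src, read 44.6 in SkBr3 and 406 in SkBr3/Lap (log2 fold change 2.29), but 36.9 in BT474 and 35.3 in BT474/Lap (log2 fold change -0.60). FES read 338 in SkBr3 and 55.5 in SkBr3/Lap (log2 fold change -3.50) and was below background in the BT474 line. ABL1 had log2 fold changes of -0.92 and -0.64 by its brightest probe, but its other 2 kept probes gave 0.13 and 0.02 in BT474/Lap and no fold change in SkBr3/Lap, where the parental signal was below background. SYK had log2 fold changes of -0.27 and 0.49.

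Among 21 regulators of Src-family kinases, 16 passed the filter. In SkBr3/Lap 2 were at least 2-fold higher and 3 lower, beside 13.5% and 13.0% of all named genes. In BT474/Lap 2 were higher and 2 lower, beside 8.66% and 5.16%. PTPRE, a receptor phosphatase that can remove the inhibitory tail phosphate, read 100 in SkBr3 and 1963 in SkBr3/Lap (log2 fold change 3.40). In the BT474 line PTPRE read 10.9, below background, in the parent and 579 in the clone, a log2 fold change of at least 4.64. PAG1, the membrane adaptor that recruits CSK, read 1012 in SkBr3 and 235 in SkBr3/Lap (8.01-fold lower after scaling), and 1486 in BT474 and 1447 in BT474/Lap (log2 fold change -0.58). Another kept PAG1 probe gave log2 fold changes of -3.90 and -0.27. PTPRJ, another receptor phosphatase, had log2 fold changes of 1.04 and 0.28. CBL, a ubiquitin ligase that marks active kinases for degradation, had log2 fold changes of -1.01 and 0.05. DOK1 and PTPN12 were lower in BT474/Lap, at -1.31 and -1.09, beside 0.42 and 0.33 in SkBr3/Lap. In the SkBr3 and BT474 clones, in that order, UNC119 had log2 fold changes of -0.61 and 0.61, and NDRG1 of -2.85 and 1.45.

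The 31 substrates and adaptors had 30 genes with a probe and 28 past the filter. In SkBr3/Lap 11 were at least 2-fold higher and 1 was lower (median log2 fold change 0.76), beside 13.5% and 13.0% of all named genes. Of the 11, GAB1 (58.2 in SkBr3 and 346 in SkBr3/Lap) passed the filter through SkBr3/Lap alone. In BT474/Lap 3 were higher and 1 was lower (median 0.03), beside 8.66% and 5.16%. NEDD9, a docking protein that Src-family kinases phosphorylate, read 456 in SkBr3 against 5410 in SkBr3/Lap, and 368 in BT474 against 1808 in BT474/Lap, with log2 fold changes of 2.67 and 1.76. CAV1 (caveolin-1), a classic Src substrate, read 1482, 7879, 37.3 and 2725 in the same order, with log2 fold changes of 1.51 and 5.65. AFAP1L2, an adaptor that binds Src, read 200, 1420, 41.6 and 1704, with log2 fold changes of 1.93 and 4.82. All 3 were higher in each clone than in either parent. EFS, a relative of NEDD9, moved in opposite directions, from 304 to 7625 in the SkBr3 line (log2 fold change 3.75) and from 6908 to 876 in the BT474 line (log2 fold change -3.52). CDCP1, a membrane protein that docks Src, read 104 in SkBr3 against 2581 in SkBr3/Lap, and 2517 in BT474 against 2526 in BT474/Lap, with log2 fold changes of 3.74 and -0.53. Another kept CDCP1 probe gave a limit of 3.31 in SkBr3/Lap and a log2 fold change of 0.36 in BT474/Lap, so that the direction in BT474/Lap is not settled. STAP2, an adaptor and substrate of PTK6, was lower in both clones, with log2 fold changes of -1.71 and -0.71. CTNND1 (p120-catenin) had log2 fold changes of -0.89 and 0.49 by its brightest probe and of 0.03 and -0.62 by another kept probe, so that its direction is not settled.

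**Figure D5:**
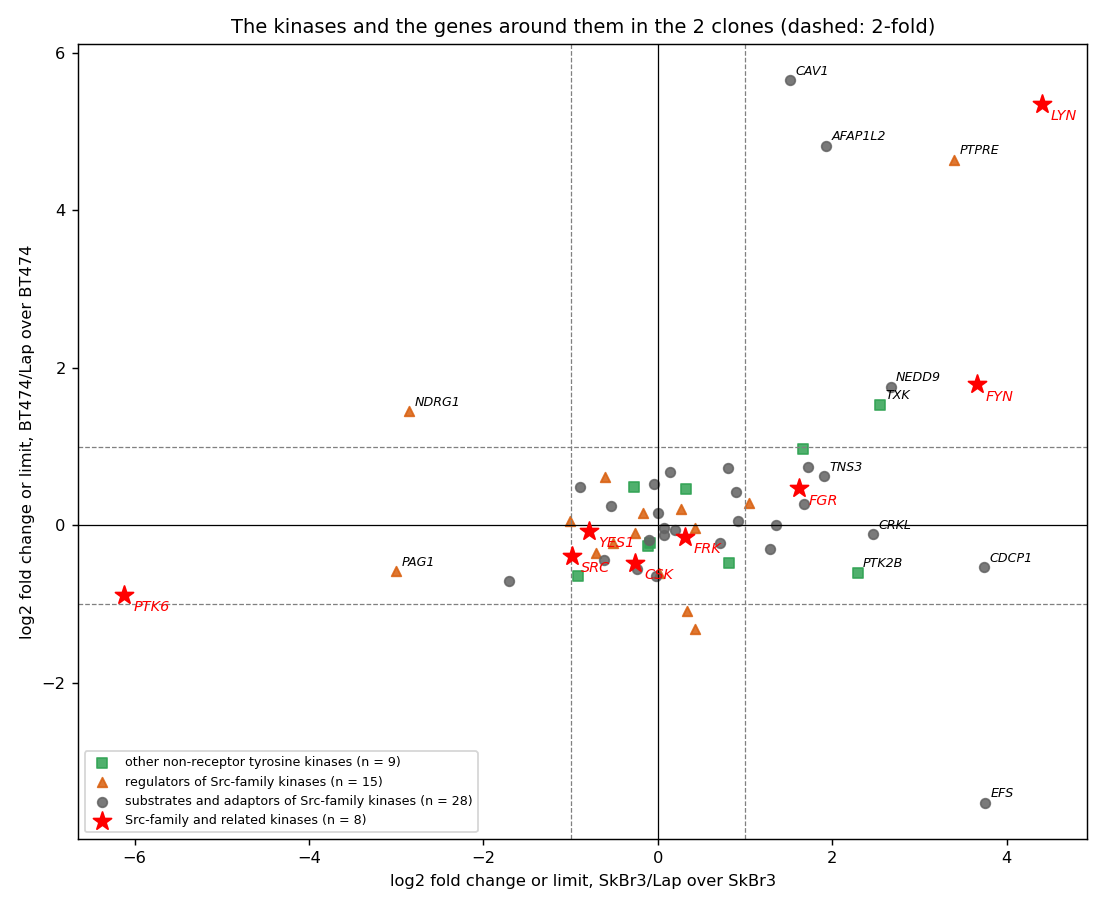
Log2 fold change or limit in BT474/Lap (vertical) against that in SkBr3/Lap (horizontal) for 8 kinase genes (stars) and the genes of the other lists with a value in both clones, with dashed lines at 2-fold. LYN, FYN, PTPRE, CAV1, AFAP1L2, NEDD9 and TXK lie in the upper right, beyond 2-fold in both clones, and EFS lies at 3.75 and -3.52.

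Of the targets of lapatinib, ERBB2 (HER2) read 238524 in SkBr3 against 118706 in SkBr3/Lap, and 256346 in BT474 against 237327 in BT474/Lap, with log2 fold changes of -1.90 and -0.65. EGFR had log2 fold changes of 1.32 and -1.34. NFKBIA, which encodes the Src substrate IκBα, had log2 fold changes of 1.09 and 0.40.

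The named genes whose pattern over the 4 arrays lay closest to that of FYN, by Euclidean distance of log2 values after centering each probe on its mean, were UGT1A6 (distance 0.27), ATP10D (0.32) and KRT14 (0.37). UGT1A6, a glucuronidation enzyme whose transcript shares exons with other UGT1A genes so that its probe may read them too, had log2 fold changes of 3.73 and 1.83. Only genes well above background on all 4 arrays were compared. For LYN, with parental values set to the lowest signal above background, the closest were HSD17B11 (distance 1.53), SGK1 (1.68) and KRT16 (1.84). Genes below background in both parents, as LYN was, were thus left out, and the distances of LYN and FYN are not comparable. The distance rests on 4 arrays and describes the pattern alone.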

How the data were processed

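RNA from 2 parental lines and 1 resistant clone of each was hybridized to 4 Agilent 4 × 44 K arrays. The authors deposited the processed signal of each spot, an intensity that per the file headers came from Feature Extraction 10.1.1.1 in a single Cy3 channel after background subtraction and detrending, with median pixel intensities and flags (the methods name an earlier version, Cy3 or Cy5, and LOWESS). A table of log2 values was deposited too, shifted per array and centered per probe, whose scale and centering are read from the values and which served as an alternative.

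Here the log2 signals of a probe's spots were averaged and the 75th percentile over 41000 probes was subtracted. This percentile ran from 1115 to 2074, 66.6% to 74.0% of probes were well above background, and 0 spots were saturated. A probe was kept (25927 probes) with a signal of at least 100 on 1 array or more, and counted as above background when 50% of its spots were so marked. A gene was read from the brightest of its kept probes, by mean signal. Where 1 signal of a pair was not above background it was raised to the lowest signal so marked on that array and the fold change is a limit, with none where both were dim or the limit was under 1. The number of arrays limits the precision. Names came from RefSeq (GRCh38.p14), matched by accession for 23680 probes, and the probes' own build is hg18. limma 3.58.1 in R 4.3.3 used Benjamini-Hochberg adjustment over all kept probes, and other steps used Python 3.11.15, numpy 2.4.6, pandas 2.3.3 and matplotlib 3.10.9.

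The genes named are all 9 kinases, list genes changed at least 2-fold in the same direction in both clones, the 2 largest rises and falls per list and clone among genes above background in the pair, ERBB2, EGFR, NFKBIA and the 3 closest patterns to FYN and LYN. CBL, GAB1, FGR probes that disagree and marker genes were named after their values were seen. The kinases and all lists were chosen with earlier results of these data known. The alternatives were other scalings (percentile over probes above background on all arrays, median, quantile), normexp with quantile normalization, the deposited table, addition of 16 to the signal, outlier spots left out, other filters, a 3-fold threshold, the mean of a gene's probes, and limma with no block, a slide block, quantile normalization or no filter. The scripts were tested on simulated data. Some items that the lists cover are not reported here.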

Additional observations from a re-analysis of the deposited data

Results flagged for a closer look

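By their brightest probe, several genes around the kinases were higher in one clone and lower in the other, each clone measured on 1 array against its parent, and the difference was not tested for any of them. The log2 fold change in SkBr3/Lap minus that in BT474/Lap was 7.27 for EFS (3.75 and -3.52), a docking protein for Src. It was 4.28 for CDCP1 (3.74 and -0.53), a membrane substrate of Src, but another kept CDCP1 probe gave 0.36 in BT474/Lap, so that the opposite direction is not borne out. It was 2.89 for PTK2B (2.29 and -0.60), a focal adhesion kinase. It was 1.74 for DOK1 (0.42 and -1.31), an adaptor that restrains kinase signaling, and 1.42 for PTPN12 (0.33 and -1.09), a phosphatase of focal adhesion proteins. For NDRG1, a stress-response gene, it was -4.30 (-2.85 and 1.45).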

How the results depend on the processing

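With 1 array per condition no replicate could be left out and no error of a fold change could be measured. In both clones FYN and LYN stayed at least 2-fold higher, and PTK6 stayed at least 2-fold lower in SkBr3/Lap, under all 8 alternative calculations of the values. Not all of these are separate checks. The mean of a gene's probes could not differ for these genes, each read by a single probe. Leaving out outlier spots and using the deposited table gave the same values as the main calculation. The number of kinases at least 2-fold lower in SkBr3/Lap was 2 in place of 1, with SRC at -1.02, when the percentile was taken over probes marked well above background on every array. The number lower in BT474/Lap was 1 in place of 0, with PTK6 at -1.09, when arrays were scaled by the median. Requiring a probe well above background on all 4 arrays left 1 kinase in place of 2 higher in BT474/Lap and 2 in place of 3 in SkBr3/Lap, since this filter removes LYN. Normexp with quantile normalization also left 2 in place of 3 higher in SkBr3/Lap, with FGR at 0.87. A 3-fold threshold left 1 list gene in place of 3 lower in BT474/Lap. On the log2 scale, the LYN limits lay between 2.87 and 4.56 for SkBr3/Lap and between 3.38 and 5.46 for BT474/Lap. The FGR log2 fold change in SkBr3/Lap ran from 0.87 to 1.78, and the YES1 value in BT474/Lap ran from -0.50 to 0.04. Scaling by the median turned the split over all named genes in BT474/Lap from 1053 higher and 627 lower to 846 and 997 and it left FYN and LYN on the same side. limma called 0 probes at an adjusted p below 0.05 with no block, quantile normalization and no filter, with 308, 911 and 2043 at an unadjusted p below 0.05. The slide block left BT474/Lap as the only clone array in the comparison, so that this fit cannot check a shift shared by both clones. Dim signals limit FGR, LCK, the parental LYN values and PTK6 in SkBr3/Lap, which lay near background.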

Other observations

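Other kinases and adaptors best known from blood cells, chosen after their values were seen, differed between the lines. BTK, a B-cell kinase, was below background in SkBr3 at 3.26 and read 91.8 in SkBr3/Lap, with a limit of 1.62 on the log2 scale, and it was below background in both BT474 arrays. BTK did not pass the signal filter. VAV1, an exchange factor that Src-family kinases phosphorylate, read 3445 in SkBr3 and 6235 in SkBr3/Lap (log2 fold change -0.04). In the BT474 line VAV1 read 6.54, below background, in the parent and 33.2 in the clone, a limit of 0.52 on the log2 scale. ZAP70, the kinase that acts after LCK in T cells, read from 8.06 to 20.4 over the 4 arrays and was well above background in BT474/Lap alone. The exchange factor VAV2, found in most tissues, had log2 fold changes of -0.24 and -0.55. STAT3, a transcription factor that Src can phosphorylate, had log2 fold changes of 0.80 and 0.73, under 2-fold in both clones.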
